A study of Zea mays with 4 samples.

Results

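The plastid-encoded photosystem genes are described here in whole maize (Zea mays) seedlings. They were chosen by name, as the IDs of the deposited count table written psa or psb followed by 1 capital letter. This took 5 of 22525 IDs: psaC of photosystem I and psbA, psbB, psbC and psbH of photosystem II. In RefSeq's genes for Zm-B73-REFERENCE-NAM-5.0, all 5 lie on the plastid genome, which holds 20 psa and psb genes. The other 15, among them psaA, psaB and psbD, were not analysed here. No measured value was used to choose the members, but the choice was made with earlier results of these data known.

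Each of 4 libraries was made from whole V3-stage seedlings, root and shoot included, raised in a greenhouse under a 14-h day and a 10-h night. In the labels, 2 libraries are of the inbred line B73 and 2 of an F1 hybrid of the lines A188 and B73, also named HiII. Each genotype has a library coded RPI10 and a library coded RPI11, and the labels do not say what the codes stand for. Nothing states that libraries came from separate plants, so p-values measure the spread between these libraries, which may be technical. The B73 libraries held 275271 (RPI10) and 403858 (RPI11) counts and the hybrid libraries 1341976 (RPI10) and 883812 (RPI11), so both hybrid libraries were the deeper ones.

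Photosystem II splits water and passes electrons through the cytochrome b6f complex to photosystem I, which reduces ferredoxin. Core subunits of both photosystems are encoded in the plastid genome, and most peripheral and antenna subunits in the nucleus. In plants, plastid messages are often transcribed together from neighbouring genes and then cut, and a poly(A) tail in plastids is known to mark RNA for decay. In maize the plastid is inherited through the seed parent, which the labels do not name for this hybrid. The libraries were primed on poly(A) RNA, and how plastid RNA was captured was not measured.

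In the hybrid, transcripts of psbC and psbH were higher than in B73, while the ranges of psaC and psbB in the genotypes overlapped on the scale used. Between the RPI codes, psaC and psbC were lower in RPI11. In each comparison 2 of the 5 genes were called, with psbC in both, while 50.6% of all IDs tested were called between genotypes and 3.26% between codes. Every member had at least 108 counts in every library, and all 5 passed the filter on low counts. Levels are CPM, the counts of a gene relative to a fixed library total, after scaling by the trimmed mean of M-values (TMM), unless a sentence says otherwise.

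**Figure D1:**
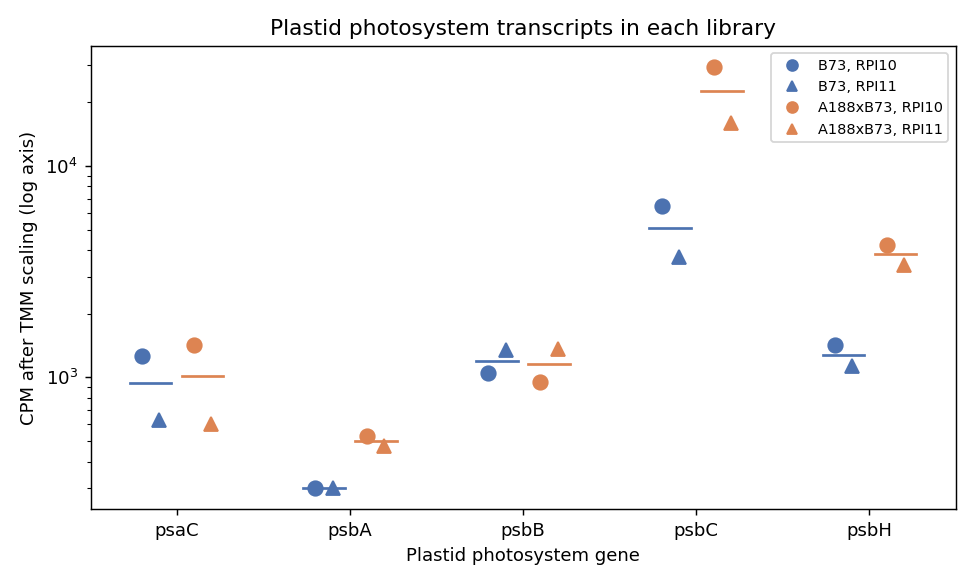
Each point is the level of 1 gene in 1 library, in CPM after TMM scaling on a log axis; colours are genotypes, shapes are RPI codes and short lines are means of 2 libraries. Both hybrid libraries lie above both B73 libraries for psbA, psbC and psbH, and for psaC both RPI11 libraries lie below both RPI10 libraries.

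psbC encodes CP43, an inner antenna protein that binds chlorophyll and passes light energy to the reaction centre. The B73 libraries had 2334 (RPI10) and 1893 (RPI11) counts of it and the hybrid libraries 30020 (RPI10) and 11185 (RPI11). Its level was 6496 CPM (RPI10) and 3703 CPM (RPI11) in B73, against 29377 and 15924 CPM for the hybrid. Both hybrid libraries lay above both B73 libraries, and within each genotype the RPI10 library was the higher. The mean was 5099 ± 1975 CPM for B73 and 22650.2 ± 9513 CPM for the hybrid (SD over n = 2 libraries). psbC was 4.44-fold higher (log2 fold change 2.15, SE 0.45, edgeR quasi-likelihood adjusted p = 0.00210). With library totals the log2 fold change was 1.41 (edgeR adjusted p = 0.00997). Scaled to the total of the 25 IDs with plastid gene symbols it was 1.02 (SE 0.83) and not called (edgeR adjusted p = 0.350). psbC itself made up 13.3% (RPI10) and 13.1% (RPI11) of that total in B73, and 25.2% and 28.3% in the hybrid, which lowers this value. With the code as a replicate block, a setting added after seeing the data, it was 1.02 (SE 0.17) and called (edgeR adjusted p = 6.34e-07). In its own library psbC ranked 13 (RPI10) and 14 (RPI11) by count among all IDs for B73, and 9 in both hybrid libraries.

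psbH encodes a small phosphoprotein of photosystem II. The RPI10 and RPI11 libraries of B73 had 512 and 578 counts of it, and those of the hybrid 4337 and 2398. Its level was 1425 and 1131 CPM in B73, against 4244 and 3414 CPM for the hybrid. The genotypes did not overlap, and the libraries of a genotype were closer together than for psbC. Its mean was 1278 ± 208 CPM for B73 and 3829 ± 587 CPM for the hybrid, a log2 fold change of 1.58 (SE 0.38, edgeR adjusted p = 0.00455). The call was lost without the RPI11 library of B73 (log2 fold change 1.47, edgeR adjusted p = 0.0855), and with library totals (0.85, edgeR adjusted p = 0.0653). Over 17 settings the adjusted p ran from 1.51e-07 to 0.662 for psbH and from 1.04e-10 to 0.350 for psbC.

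psbB encodes CP47, the other inner antenna protein of photosystem II. It had 378 and 687 counts in the RPI10 and RPI11 libraries of B73, and 972 and 959 in those of the hybrid. The level was 1052 and 1344 CPM in B73, against 951 and 1365 CPM for the hybrid. Both B73 values lay between the hybrid values, and the log2 fold change was -0.05 (SE 0.38, edgeR adjusted p = 0.924). That sign turned under DESeq2 size factors (0.0142), and library totals gave -0.77 (SE 0.39, edgeR adjusted p = 0.105).

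psbA encodes the D1 reaction centre protein, which turns over quickly in light. It had 108 and 153 counts in the RPI10 and RPI11 libraries of B73, and 537 and 332 in those of the hybrid, the fewest of the 5 genes in each library. Counts of different genes are not compared as RNA levels here, since the yield of a tag near a poly(A) site can differ between genes. The level was 301 and 299 CPM in B73, against 525 and 473 CPM for the hybrid, so the genotypes did not overlap on this scale. The log2 fold change was 0.73 (SE 0.37), which missed the threshold (edgeR adjusted p = 0.114). It was 0.81 within RPI10 and 0.66 within RPI11, and with the code as a replicate block psbA was called at 0.73 (SE 0.22, edgeR adjusted p = 0.00739). With library totals it was 0.01 (SE 0.38, edgeR adjusted p = 0.986).

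psaC is the photosystem I member. Its protein holds the terminal iron-sulfur clusters that pass electrons to ferredoxin. It had 454 and 320 counts in the RPI10 and RPI11 libraries of B73, and 1450 and 425 in those of the hybrid. The level was 1264 and 626 CPM in B73, against 1419 and 605 CPM for the hybrid. Libraries with the same code lay close together, and both B73 values lay between the hybrid values. The log2 fold change between genotypes was 0.10 (SE 0.48, edgeR adjusted p = 0.875), with library totals it turned to -0.64 (SE 0.46, edgeR adjusted p = 0.244), and it also turned without the RPI10 library of the hybrid (-0.64) and without the RPI11 library of B73 (-0.28).

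Between genotypes, 2 of the 5 genes were called higher and 0 lower. Over all 3282 IDs tested, 25.3% were called higher and 25.4% lower (50.6% in all), so calls were common in the table. With library totals 1 of the 5 was called higher (psbC), and over all IDs 482 were called higher and 1357 lower, against 829 and 833 with TMM. Scaling to the total of the 25 IDs with plastid gene symbols gave 78 and 903. With the code as a replicate block, psbA included, 3 were called higher and 0 lower, against 29.6% and 27.4% of all IDs (57% in all). With TMM none of the 5 was lower at an unadjusted p under 0.05 (edgeR). DESeq2 also gave 2 higher and 0 lower, where 551 of 4156 IDs were called higher and 205 lower. Both hybrid libraries lay above both B73 libraries for 3 of the 5, against 36.1% of all IDs tested, and below them for 0 of the 5, against 40.2%. The median log2 fold change was 0.73 over the 5 genes and -0.04 over all IDs tested. Library totals moved the median of all IDs from -0.04 to -0.76. Relative to that median, the log2 fold changes with library totals were 2.17 for psbC, 1.61 for psbH, 0.77 for psbA, 0.12 for psaC and -0.01 for psbB, which is the same order as with TMM.

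**Figure D2:**
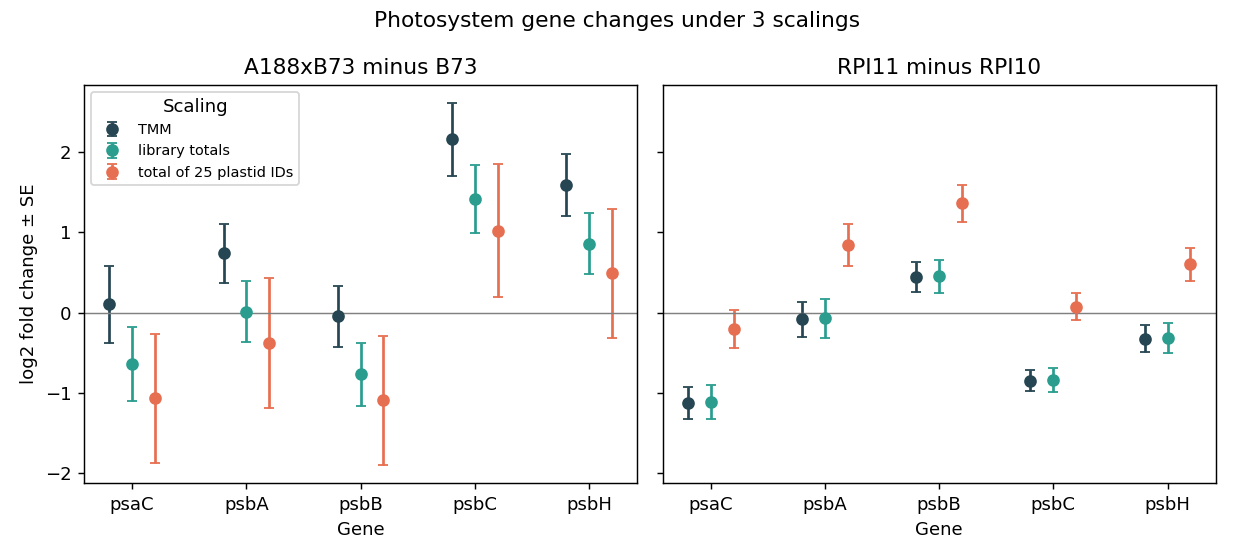
Each point is the log2 fold change of 1 gene with its standard error (bars), for hybrid minus B73 (left) and RPI11 minus RPI10 (right), under 3 scalings of the libraries. In the left panel the order of the genes is the same under each scaling while all 5 shift together, with psbC at 2.15, 1.41 and 1.02; in the right panel scaling to the total of 25 plastid IDs moves all 5 up, with psbB from 0.44 to 1.36.

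The next comparison was within libraries, where a ratio of counts of 2 genes does not depend on the scaling. The psbC to psbB ratio was 6.17 (RPI10) and 2.76 (RPI11) for B73, against 30.9 and 11.7 for the hybrid. The psbH to psbB ratio was 1.35 and 0.841 in B73, and 4.46 and 2.50 in the hybrid. The psbC to psaC ratio was 5.14 and 5.92 in B73, and 20.7 and 26.3 in the hybrid. In all 3 ratios both hybrid libraries lay above both B73 libraries, and these ratios are the same under every library scaling. With 2 libraries against 2, an exact permutation test cannot go below p = 0.333, and none was run.

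Of the 10 pairs of members, 8 had ratios that did not overlap between genotypes. Among all 300 pairs of the 25 IDs with plastid gene symbols the share was 65%, so such separation was common among plastid IDs. The psaC to psbB pair was one of the exceptions. Its ratio was 1.20 in B73 and 1.49 in the hybrid with RPI10, and 0.466 and 0.443 with RPI11, so it separated the codes and not the genotypes. Between codes 2 of the 10 pairs did not overlap, against 26.7% of the 300 pairs.

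Summed over the 5 genes, counts were 1.38% (95% Wilson interval 1.33 to 1.42) and 0.899% (0.870 to 0.929) of all counts in the RPI10 and RPI11 libraries of B73. In the hybrid they were 2.78% (2.75 to 2.81) and 1.73% (1.70 to 1.76). Their mean share was 1.14% ± 0.337 for B73 against 2.26% ± 0.742 for the hybrid (SD over n = 2 libraries), and both hybrid libraries lay above both B73 libraries. Without psbC the means were 0.479% ± 0.0687 and 0.505% ± 0.0553, and the libraries of the genotypes overlapped. These intervals cover counting error only.

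**Figure D3:**
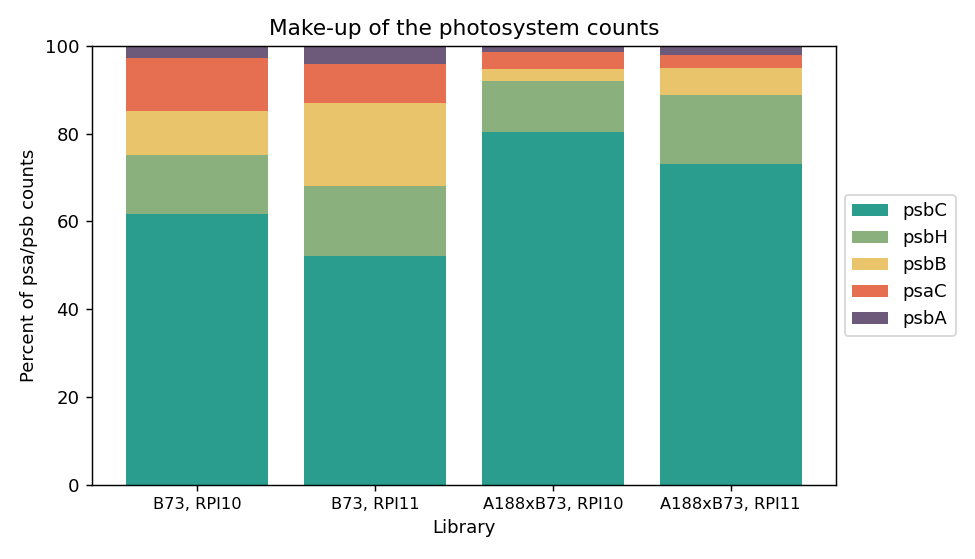
Stacked bars give the percent of psa and psb counts that each of the 5 genes took in each library. psbC took 61.6% and 52.1% in the RPI10 and RPI11 libraries of B73, and 80.4% and 73.1% in those of the hybrid.

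The make-up of these counts differed between genotypes. psbC took 56.9% ± 6.73 of them in B73 and 76.8% ± 5.19 in the hybrid. psaC, and with it photosystem I, took 10.4% ± 2.25 in B73 and 3.33% ± 0.783 in the hybrid. psbB took 14.5% ± 6.32 and 4.44% ± 2.59, and psbH 14.7% ± 1.69 and 13.6% ± 2.87 (SD, n = 2 libraries each). psbA took 3.53% ± 0.962 of them for B73 against 1.80% ± 0.517 for the hybrid. The libraries of the genotypes overlapped for psbH and not for the other 4 genes. Shares add to a whole and psbC took most of it, so these 4 are not separate results. No share over other genes was computed to set beside this count. For psaC, but not for psbA and psbB, the share was also taken of the counts without psbC. It then took 31.3% (RPI10) and 18.4% (RPI11) for B73, against 19.9% and 10.3% for the hybrid, and the genotypes overlapped.

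Between the RPI codes, with genotype as a term in the model, psaC and psbC were lower in RPI11. For psaC the log2 fold change was -1.12 (SE 0.20, edgeR adjusted p = 0.00129), and it was -1.01 within B73 and -1.23 within the hybrid. psaC was 2.18-fold lower, and both RPI11 libraries lay below both RPI10 libraries, as for 8.04% of all IDs tested. For psbC the log2 fold change was -0.85 (SE 0.13, edgeR adjusted p = 0.000447), with -0.81 within B73 and -0.88 within the hybrid, so it was 1.80-fold lower. The change of each gene between codes was thus close in B73 and in the hybrid. With genotype left out of the model the log2 fold changes were -1.12 (SE 0.88) and -0.87 (SE 1.09), and neither was called (edgeR adjusted p = 1.00 for both).

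The other 3 genes missed the threshold between codes. The log2 fold change was -0.32 for psbH (SE 0.17, edgeR adjusted p = 0.413) and -0.09 for psbA (SE 0.22, edgeR adjusted p = 0.923). For psbB it was 0.44 (SE 0.19, edgeR adjusted p = 0.280), and both RPI11 libraries lay above both RPI10 libraries, as for 6.86% of all IDs tested. Of the 5 genes, 2 were called lower and 0 higher, against 2.13% and 1.13% of the 3282 IDs (3.26% in all). DESeq2 gave the same 2 and 0, where 23 of 1119 IDs with an adjusted p were called lower and 12 higher. Among the 5, psbB was the 1 gene higher at an unadjusted p under 0.05 (edgeR). Within each genotype 4 of the 5 were lower in RPI11, against 29.3% of all IDs tested. These 4 include psbA, which hardly differed, at -0.01 within B73 and -0.15 within the hybrid. The median log2 fold change was -0.32 over the 5 and -0.00 over all.

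The other plastid genes give the setting of these values. The table held 20 further IDs with plastid gene symbols, all of them tested. Between genotypes 14 of the 20 were called higher in the hybrid and 0 lower, with TMM, against 25.3% of all IDs tested. Library totals gave 10 and 0, and scaling to the plastid total gave 0 and 0. Their median log2 fold change was 1.74. With library totals 17 of the 20 were above 0, with atpI among the exceptions at -0.51. The 5 genes of the NDH complex, which carries electrons around photosystem I, had 4 called higher (median 2.11). These 4, the 14 and the 10 all include ndhE, which passed the filter on low counts through the hybrid libraries alone. Of 7 for plastid ribosomes and translation 6 were called higher (median 2.03), and of 4 for the plastid RNA polymerase 3 were (median 1.85). With TMM and both codes together, psaC and psbB were below each of these 20 genes in log2 fold change. The lowest of the 20 was atpI at 0.21 (SE 0.38), so psaC and psbB are not set apart from it. Within RPI11 alone atpI was at -0.23, below psaC (-0.05) and psbB (0.02).

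**Figure D4:**
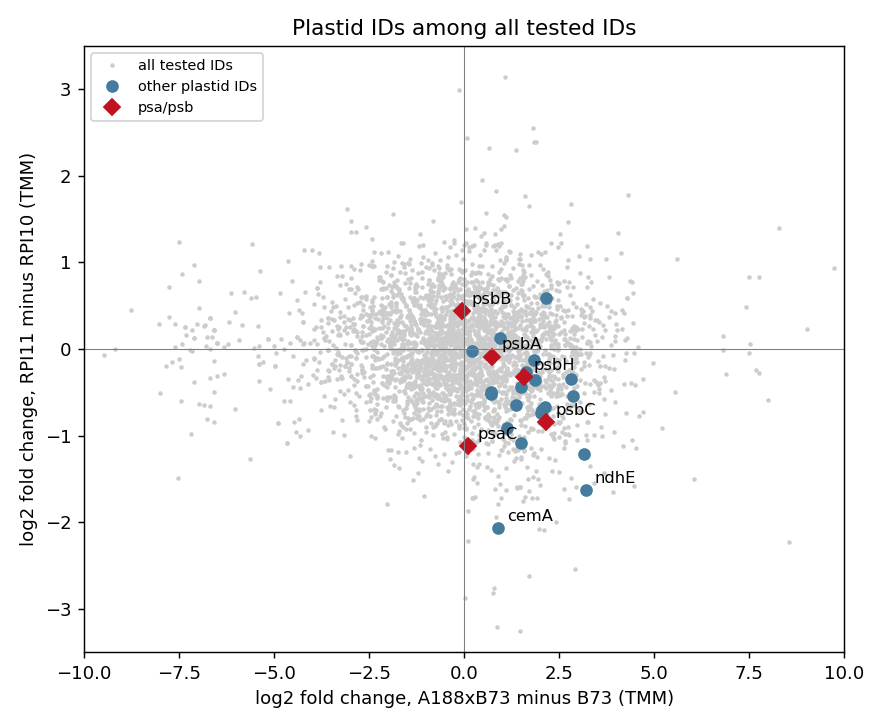
Each point is 1 tested ID, with its log2 fold change for hybrid minus B73 on the x axis and for RPI11 minus RPI10 on the y axis, both with TMM scaling. Diamonds are the 5 photosystem genes and blue circles the 20 other plastid IDs. psaC and psbB lie near 0 on the x axis, left of all 20, of which the nearest is atpI at 0.21 (SE 0.38). Among the plastid IDs cemA and ndhE lie lowest on the y axis.

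Between codes 6 of the 20 other plastid genes were called lower in RPI11 and 0 higher, against 2.13% and 1.13% of all IDs tested, with a median log2 fold change of -0.53. DESeq2 size factors and library totals also gave 6 and 0. Scaling to the plastid total gave 1 lower and 5 higher, where 18 of all 3282 IDs were called lower and 1315 higher. The most abundant plastid ID by count, cemA, which encodes an envelope membrane protein, fell by 2.07 on the log2 scale (SE 0.13, edgeR adjusted p = 3.57e-10). The next by total count were psbC, atpI (a subunit of the ATP synthase), rps3 (a ribosomal protein) and psbH. The log2 fold change between codes was -0.02 for atpI (edgeR adjusted p = 0.975) and -0.26 for rps3 (edgeR adjusted p = 0.562).

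Since cemA took much of the plastid counts, the members were also set against the total of the 25 plastid IDs. They took 21.6% (RPI10) and 25.1% (RPI11) of that total in B73, and 31.3% and 38.7% in the hybrid. The share was higher in RPI11 in each genotype. With cemA left out of the total it was lower there in each genotype, at 41.6% (RPI10) and 31.4% (RPI11) for B73, and 50.2% and 47.4% for the hybrid. Scaled to the total of all 25, cemA included, psbC had a log2 fold change between codes of 0.07 (SE 0.17, edgeR adjusted p = 0.724). On the same scale psaC was at -0.20 (SE 0.23, edgeR adjusted p = 0.464). psbB (1.36), psbA (0.84) and psbH (0.60) were then called higher in RPI11. That scaling moved the median of all IDs tested to 0.92, with 1315 IDs called higher and 18 lower, against 37 and 70 with TMM. Relative to that median the log2 fold changes were 0.44 for psbB, -0.08 for psbA, -0.32 for psbH, -0.85 for psbC and -1.12 for psaC, close to those with TMM. With cemA left out of that total, a setting added after seeing the data, none of the 5 was called (edgeR; 1 higher and 1 lower at an unadjusted p under 0.05), psbB was at 0.85 and psaC at -0.71, and 95 of all IDs were called higher and 16 lower.

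In the RefSeq table psaC lies between ndhD and ndhE, and ndhE, a subunit of the NDH complex named here after its values were seen, was also counted. It had 3 and 1 counts in the RPI10 and RPI11 libraries of B73, and 66 and 15 in those of the hybrid. It passed the filter on low counts through the hybrid libraries alone, so its own call between genotypes is not read as a result, though the counts above include it. It is 1 of the 4 NDH genes and of the 14 plastid genes counted above as higher, and it was the only one of the 20 to pass in that way. In CPM, ndhE was lower in RPI11 by 2.09 on the log2 scale within B73 and by 1.60 within the hybrid. Its B73 value rests on 3 and 1 counts. psaC was also lower in RPI11 in each genotype, and whether the 2 genes change together was not tested. psbB and psbH are separated in that table by psbT and psbN, neither of them analysed here, and are transcribed together with them in plants, except psbN, which is on the other strand. psbC starts within the end of psbD. Whether reads were counted by strand, and how reads from overlapping genes or joint transcripts were assigned, is not given in the sources used here, so the values of psbB, psbC and psbH are uncertain to that extent.

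Nuclear genes of the photosystems were set beside them. Of 40 symbols listed, 4 were in the table and 3 were tested. All 3 were called higher in the hybrid with TMM and with library totals, and 0 when scaled to the plastid total. Under these scalings 829, 482 and 78 of the 3282 IDs were called higher. CAB1, an antenna protein, rose from 399 ± 10.7 to 1654 ± 361 CPM (log2 fold change 2.05, edgeR adjusted p = 0.00123). PSBQ1, of the water-splitting side of photosystem II, rose from 102 ± 13.7 to 348 ± 19.5 CPM (1.78, edgeR adjusted p = 0.00241). FDX2, a ferredoxin, rose from 29.6 ± 2.45 to 213 ± 39.4 CPM (2.84, edgeR adjusted p = 0.000309). FDX3 had 1 or 2 counts in each library and was not tested. PSAH, a nuclear subunit of photosystem I named here after its values were seen, rose from 213 ± 22.1 to 745 ± 189 CPM (1.80, edgeR adjusted p = 0.00271). Each mean is over 2 libraries. None of these 4 tested genes was called between codes with TMM, where their log2 fold changes ran from -0.27 (CAB1) to 0.39 (PSAH).

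Of 10 nuclear symbols listed as markers of green tissue, CAB1, FDX2 and RCA1 were in the table. CAB1 and FDX2 were called higher in the hybrid, and RCA1 was not. Their summed level, most of it CAB1, was 520 to 523 CPM in B73 and 1784 to 2260 CPM in the hybrid. RCA1 (Rubisco activase) had a log2 fold change of 0.72 (edgeR adjusted p = 0.161). Of 3 root aquaporin symbols only PIP2-5 was in the table, with 3 to 11 counts a library, too few to test. Whether the libraries hold different parts of shoot and root was not tested, and in bulk seedlings fewer cells of a type and less RNA per cell cannot be told apart.

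Outside these lists, the 3 tested IDs whose centred log2 profile over the 4 libraries lay nearest to the mean profile of the 5 members were Zm00001d022510, Zm00001d042627 and Zm00001d002089, at distances of 0.07, 0.09 and 0.10. In the RPI10 and RPI11 libraries of B73, Zm00001d022510 had 9 and 10 counts, Zm00001d042627 had 5 and 5, and Zm00001d002089 had 31 and 33. In those of the hybrid they had 51 and 27, 26 and 14, and 165 and 79, so the likeness of the first 2 rests on few B73 counts. No table used here gives these IDs a name.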

How the data were processed

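Whole-seedling RNA of B73 and of the A188 x B73 hybrid was measured in 2 libraries each, by a protocol based on CEL-Seq2 with a molecular identifier of 10 bp, per the labels. The authors deposited whole-number counts per ID, with no normalized values. CASAVA 1.4, HISAT2, UMI-tools and the build B73 RefGen_v4 are named in the submitters' processing notes, without roles. The counting tool, the annotation and whether identifiers were collapsed are not given in the sources used here. Molecules primed in A-rich stretches or shared between genes would enter the counts.

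All 22525 IDs entered edgeR 4.0.16 (R 4.3.3). filterByExpr with a minimum count of 10 left 3282. Library totals were scaled by TMM, and quasi-likelihood tests used genotype alone, or code with genotype as a term, with Benjamini-Hochberg adjustment over all 3282 and a threshold of 0.05. SE is the absolute log2 fold change over the root of F. By library totals, 1 count equals 3.63 CPM in the RPI10 library of B73 and 0.745 CPM in that of the hybrid, which limits low values. The members and lists were chosen with earlier results of these data known. All members are described; other genes are the 5 most abundant plastid IDs, the tested nuclear photosystem symbols and the 3 nearest profiles (pseudocount 1), and genes outside that rule (ndhE, PSAH, RCA1, PIP2-5 and FDX3) are named as neighbours, markers or untested list members. Of the 25 plastid symbols, 24 matched the RefSeq table. Plastid genes under other IDs were not searched for, so "plastid IDs" and "plastid total" mean these 25 alone. Alternatives were other scalings and filters, equal depth (275271 counts), DESeq2 1.42.0, a threshold of 0.01, a replicate block and leaving out libraries. The tests were first tried on simulated data with known changes, as many up as down, in a small part of the IDs. In the data 50.6% of the IDs tested were called between genotypes, a setting that the simulation did not cover.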

Additional observations from a re-analysis of the deposited data

Results flagged for a closer look

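Within RPI10 the log2 ratio of hybrid to B73 of psaC was 0.17 and within RPI11 it was -0.05, a difference of -0.22 between codes whose signs are opposite. For psbB the ratios were -0.15 and 0.02, a difference of 0.17. Neither difference was tested, and each rests on 1 pair of libraries per code.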

How the results depend on the processing

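Between genotypes, against 2 members called higher and 0 lower, library totals and the total outside the plastid IDs each gave 1 higher, and the plastid total, with or without cemA, gave 0. The plastid total without cemA gave 1 lower (psaC), where 182 of all 3282 IDs were called higher and 1549 lower. The median log2 fold change of all IDs was -1.31 there, and psaC was at 0.07 relative to it. Leaving out each library gave 1 to 2 higher, with the lone library assumed to vary like the other genotype. Signs of changes that were not called turned as follows. For psaC the log2 change was -0.64 with library totals, -0.61 with the total outside the plastid IDs, -1.07 and -1.25 with the plastid total with and without cemA, -0.11 with 10 counts in every library, -0.54 at equal depth, and -0.64 to 0.68 over left-out libraries. For psbA it was -0.38 and -0.52 with the plastid total with and without cemA. For psbB it was 0.0142 with DESeq2 size factors, 0.25 without a filter, 0.18 with DESeq2, and -0.33 to 0.19 over left-out libraries.

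The RPI code as a replicate block added psbA (log2 fold change 0.73, edgeR adjusted p = 0.00739), so 3 members were called higher. The correlation of the deviations of same-coded libraries was 0.248 over 3282 IDs and 0.628 over the 25 plastid IDs. What same-coded libraries share beyond the code is not given in the labels, and each code has a single library per genotype. The block together with the plastid total, added after seeing the data, gave 2 higher and 2 lower (psaC at -1.07, psbB at -1.18), with psbA at -0.39. In that setting 425 of all 3282 IDs were called higher and 1763 lower. The median log2 fold change of all IDs was -1.16 there, near the values of psaC and psbB.

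Between codes, against 2 lower and 0 higher, the plastid total gave 3 higher and 0 lower, with psbA at 0.84, psbC at 0.0712 and psbH at 0.60. Without cemA it gave 0 lower, with psbA at 0.34 and psbH at 0.0919. Leaving genotype out of the model gave 0 lower, and 0 members and 9 IDs in all at an unadjusted p under 0.05 (edgeR). psbA was at 0.0042 with 10 counts in every library. No residual spread is left when a library is dropped there, so those values carry no test. The other settings kept the 2 calls.

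Calls over all 3282 IDs were 1662 between genotypes and 107 between codes. They were 756 of 4156 IDs and 35 of 1119 with DESeq2. They were 731 and 41 of 1432 at equal depth, and 981 and 1333 of 3282 with the plastid total. At a threshold of 0.01 they were 1104 and 54, with 10 counts in every library 401 of 970 IDs were called between genotypes, and without the RPI11 library of B73 1054 were. The share of all counts was 1.56% in B73 and 1.83% in the hybrid without the 20 most abundant IDs, psbC among them, and 0.479% and 0.505% in B73 and the hybrid without psbC. The share of plastid counts without cemA was 36.5% and 48.8%. The psaC share without psbC was 24.8% and 15.1%, with overlapping genotypes. Of 80 values of single members between genotypes 54 kept direction and side of the threshold, and of 75 between codes 61 did or moved within the spread.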
